A study of Sus scrofa with 19 samples.

Results

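Osteopontin and the integrin subunits that bind it were followed in endometrium, which lines the uterus, from gilts (young female pigs, Sus scrofa). The 5 genes were SPP1, which encodes osteopontin, ITGAV, ITGB1, ITGB3 and ITGB5. They were chosen by name, and their probes were found on the array through RefSeq accessions, provided that a probe was well above background on at least 4 arrays. This gave 19 probes of the 39072 tested, 4 for SPP1 (NM_214023), 5 for ITGAV (NM_001083932), 6 for ITGB1 (NM_213968), 2 for ITGB3 (NM_214002) and 2 for ITGB5 (NM_001246669). All 19 were well above background on every array where they had a value.

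The animals were crossbred gilts aged 8 months whose uterine horns had both been cannulated. Hormone horns, in 6 treated gilts, received prostaglandin E2 (PGE2, 200 µg) with estradiol (E2, 33.3 µg) at each infusion. Placebo horns were the opposite horns of the same treated gilts and received vehicle, 5 mL of saline with 1% ethanol, and 5 of them were analysed. Control gilts, 4 in number, received vehicle in both horns, which gave 4 arrays marked L and 4 marked P. Infusions were repeated every 4 h for 24 h over days 11 to 12 after the onset of oestrus. All gilts thus shared surgery, cannulation and vehicle. The meaning of the marks L and P is not given in the labels. The placebo horns were all marked L and the hormone horns were marked P, apart from gilt 40, whose hormone horn was marked L and whose placebo horn was not analysed here.

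Osteopontin is a secreted, acidic phosphoglycoprotein with an RGD (arginine-glycine-aspartate) motif, through which it binds cell surface integrins. In the pig uterus it is known from the luminal epithelium, where estrogen from the conceptus induces it and where it can bridge integrins of the uterine surface and of the trophectoderm during attachment. Immune cells such as macrophages also make it. Integrins are pairs of an alpha and a beta subunit. The alpha v subunit encoded by ITGAV pairs with the beta subunits encoded by ITGB1, ITGB3 and ITGB5 to form osteopontin receptors.

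Values below are log2 of the processed signal minus the same for the 75th percentile of that array, and 0 marks the brightness of that percentile. Probes of a gene are numbered from the brightest, which stands for the gene unless another is named. Brightness depends on the probe as well as on the RNA, so levels were not compared between probes or genes. Tests are from limma with the gilt as a random block, two-sided, with Benjamini-Hochberg adjustment over all 39072 probes, and passing means that this adjusted p was below 0.05. Across the 19 arrays, 79.1% to 88.4% of spots were well above background and 0 spots were saturated. The 75th percentile was lowest in the hormone horn of gilt 36 (594) and highest in its placebo horn (978), so these horns differ most in scaling. The epithelial and stromal markers of the labelled tissue named here lay on both sides of the 75th percentile, and all of them passed as higher in hormone horns. EPCAM, an epithelial adhesion molecule, had a mean of 5.58 in hormone horns and 4.89 in control gilts. The epithelial marker CLDN4 had 2.33 and 0.97, and the stromal collagen COL1A2 5.93 and 5.18. The stromal marker THY1 lay below that percentile, at -2.53 and -4.93. Other epithelial markers did not rise. Over the 7 measured, the limma differences were -0.32 to 1.36 with a median of 0.11, against 0.17 over the 3010 genes with a symbol.

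SPP1 was far more variable in treated gilts than in control gilts, and high in some treated gilts in both horns. In hormone horns the value was -0.32 in gilt 36, 3.17 in gilt 38, 6.51 in gilt 40, 2.70 in gilt 41, 0.60 in gilt 44 and 5.05 in gilt 47. In placebo horns it was -0.74 in gilt 36, 2.57 in gilt 38, 3.47 in gilt 41, -0.10 in gilt 44 and 5.12 in gilt 47. Control gilts 9, 14, 28 and 46 had -0.19, 0.67, -0.58 and -0.58 in the horn marked L, and -0.40, 1.14, -0.42 and 1.40 in the horn marked P. The arrays of gilts 38, 40, 41 and 47 thus lay above every control array in each horn analysed, whereas both horns of gilts 36 and 44 lay within or below the control range. From gilt 36 to gilt 40 the hormone horns spanned 6.83 log2 units, or 113-fold. As raw processed signal these ends were 476 and 80917.

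**Figure D1:**
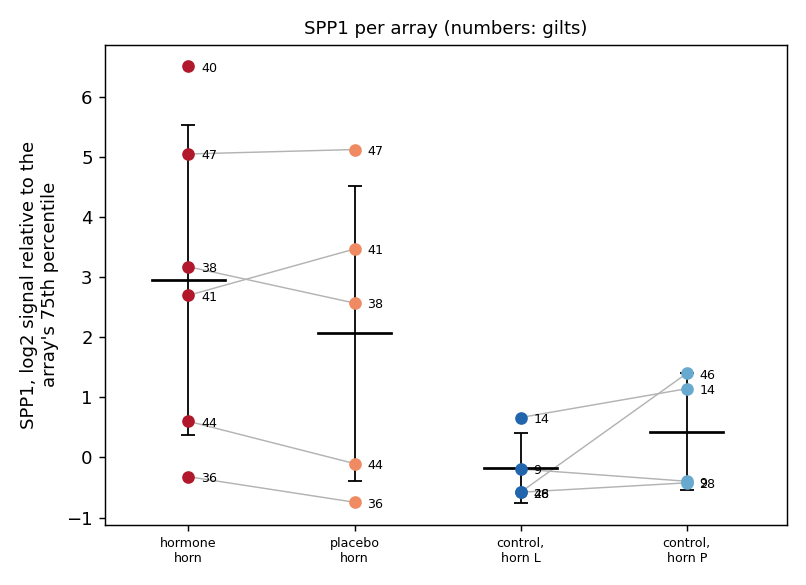
SPP1 per array, as log2 signal relative to the array's 75th percentile, in hormone horns, placebo horns of treated gilts, and the horns of control gilts marked L and P. Points are arrays labelled with the gilt, grey lines join the horns of a gilt, and bars show the mean and SD (n = 6, 5, 4 and 4). The horns of gilts 38, 41 and 47 are all above the highest control array, at 1.40.

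Hormone horns averaged 2.95 ± 2.58 (SD, n = 6), placebo horns 2.06 ± 2.46 (SD, n = 5) and control gilts 0.13 ± 0.65 (SD over 4 gilts, horns averaged). The difference between hormone horns and control gilts was 2.82 ± 0.98 log2 units (SE; 7.07-fold, 95% interval 0.78 to 4.87 log2 units), and it did not pass (limma adjusted p = 0.0668). An exact permutation test over gilts gave p = 0.0857 (two-sided, 210 splits, not adjusted for the 15 such tests made on the brightest probes). It set single hormone horns against control gilts with horns averaged, values that differ in spread by construction. Of the other SPP1 probes, probe 2 had 2.91 (adjusted p = 0.0514), whereas probe 3 with 3.02 (adjusted p = 0.0437) and probe 4 with 3.18 (adjusted p = 0.0457) passed. Probes 3 and 4 each passed in only 2 of 10 fits that left out a gilt. The 4 probes correlated with each other at 0.995 to 0.999 over the 19 arrays, a description of probes for one transcript, so they fell on both sides of the threshold with nearly the same profile. The placebo-horn mean was 1.93 above that of control gilts (exact permutation p = 0.175). The limma estimate was 2.31 ± 1.01 log2 units, because the gilt block also draws on the unpaired hormone horn of gilt 40, as it does in every limma value for placebo horns below. No SPP1 probe passed there (limma adjusted p 0.124 to 0.172).

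The SPP1 difference on probe 1 varied with the gilts kept and with scan day, and it passed in 1 of 10 fits that left out a gilt. Without gilt 36, whose horns were low, the difference was 3.48 and passed (adjusted p = 0.0209). Without gilt 40, whose hormone horn was the highest, it was 2.11 and, like the main fit, did not pass (adjusted p = 0.13). With scan day as a term it was 3.06 and passed (adjusted p = 0.0151), while within the scan days it was 0.44, 4.40 and 3.70, on 1 or 2 control gilts each. Gilts 36 and 44, which were low, were the only treated gilts scanned on day 1. Gilts 38, 40, 41 and 47, which were high, were scanned on day 2 or 3. Among treated gilts, the split into low and high SPP1 therefore cannot be told apart from scan day. Slide 6 held control gilt 9 and treated gilt 36, and every other slide held 1 gilt, so slide and gilt cannot be told apart. With slide as a term, which rests on those 2 gilts for the comparison, the SPP1 difference was -0.15.

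SPP1 differed little between the horns of a treated gilt beside its spread between gilts. The hormone horn exceeded the placebo horn by 0.43 in gilt 36, 0.61 in gilt 38 and 0.70 in gilt 44, and was below it by -0.77 in gilt 41 and by -0.07 in gilt 47. The mean of these 5 differences was 0.18 ± 0.61 (SD), and the mean size was 0.52, against an SD of 2.28 between the gilt means. In control gilts the horn marked P minus the horn marked L was -0.20, 0.48, 0.16 and 1.98, so gilt 46 showed a wider gap between 2 vehicle horns than any treated gilt showed between its horns. The limma difference between hormone and placebo horns, which also draws on the unpaired horn of gilt 40, was 0.51 ± 0.69 (adjusted p = 0.789; 95% interval -0.94 to 1.95). The interval reaches 3.87-fold in favour of the hormone horn.

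**Figure D2:**
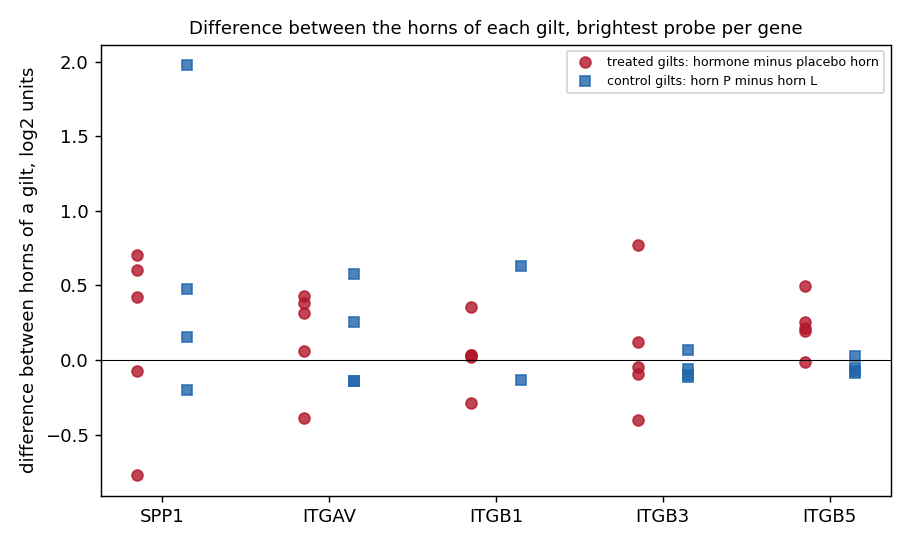
Difference between the horns of each gilt in log2 units for the brightest probe of the 5 genes, as hormone minus placebo horn in 5 treated gilts (circles) and horn P minus horn L in 4 control gilts (squares; 2 for ITGB1, where outlier spots were left out). Treated and control gilts overlap for SPP1, ITGAV and ITGB1, the ITGB3 probe has a nearly constant raw signal, and for ITGB5 4 of 5 treated gilts lie above the highest control gilt.

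Among the 3010 genes with a symbol, SPP1 ranked 15 for its SD over hormone horns (2.58, against a median of 0.39) and 21 over placebo horns. Over the means of the 4 control gilts it ranked 203 (0.65, against a median of 0.20). This last SD is of horns averaged, which lowers spread, so the ranks are not like for like. Over single control horns the SPP1 SD was 0.59 for those marked L and 0.98 for those marked P.

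Immune cell markers differed between the same animals. In hormone horns the median neutrophil marker (6 of 10 listed measured) was above control gilts by 1.75 log2 units in gilt 36, 4.72 in gilt 38, 2.98 in gilt 40, 5.32 in gilt 41, 1.93 in gilt 44 and 6.55 in gilt 47. In placebo horns it was 1.35, 4.70, 4.40, -0.70 and 7.50 in gilts 36, 38, 41, 44 and 47. Gilts 36 and 44, the treated gilts of scan day 1, were lowest in both SPP1 and this list. The summed level of the list, in units of each array's 75th percentile, was 1.33 to 68.8 in hormone horns, 0.32 to 81.1 in placebo horns and 0.42 to 0.86 in control horns, and the S100 calcium-binding genes S100A8, S100A9 and S100A12 were the 3 members that passed in hormone horns. Not all 6 markers rose. Their limma differences from control gilts were -1.39 to 6.41 in hormone horns and -1.48 to 4.34 in placebo horns. Macrophage and dendritic cell markers (12 of 16 measured) summed to 31.0 to 244 in hormone horns, 33.5 to 276 in placebo horns and 19.3 to 32.8 in control horns. Both horns of gilt 47 held the 2 highest of these sums. Gilt 40, with the highest SPP1 of all arrays, had a macrophage sum of 31.0, inside the control range. Epithelial markers (7 of 13 measured) summed to 113 to 224 in hormone horns, 129 to 193 in placebo horns and 116 to 157 in control horns, with the highest sum in the hormone horn of gilt 36, where SPP1 was low. That array also had the lowest 75th percentile, the unit of these sums, and the part of this scaling was not tested. Of the 3010 genes with a symbol, 13.0% were higher and 2.43% lower in hormone horns, and 3.72% were higher and 0.83% lower in placebo horns, which is the background for the counts of list genes here and below. Of the other marker lists, 3 of 5 endothelial, 2 of 4 stromal and 2 of 5 platelet genes measured rose in hormone horns and 0 fell (limma). In the T and natural killer cell list 1 of 11 genes fell (GZMB, -0.93) and 0 rose. That list's median difference was nevertheless 0.67 in hormone horns (-0.93 to 1.22) and 0.81 in placebo horns, against 0.17 and 0.08 over the 3010 genes. In hormone horns 0 of 4 B cell, 0 of 5 smooth muscle and 0 of 1 erythrocyte genes passed (limma). In hormone horns 3 of 7 epithelial genes rose (EPCAM, CLDN4 and CDH1) and 3 of 12 macrophage genes (LYZ, CD14 and MRC1). In placebo horns 3 of 7 epithelial, 1 of 12 macrophage and 2 of 6 neutrophil genes rose, and 0 genes of the other marker lists passed (limma). The part of these cell types in the SPP1 values, and in those of the integrin subunits below, was not tested. In bulk tissue, a change in the number of cells of a type and a change in RNA per cell cannot be told apart.

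**Figure D3:**
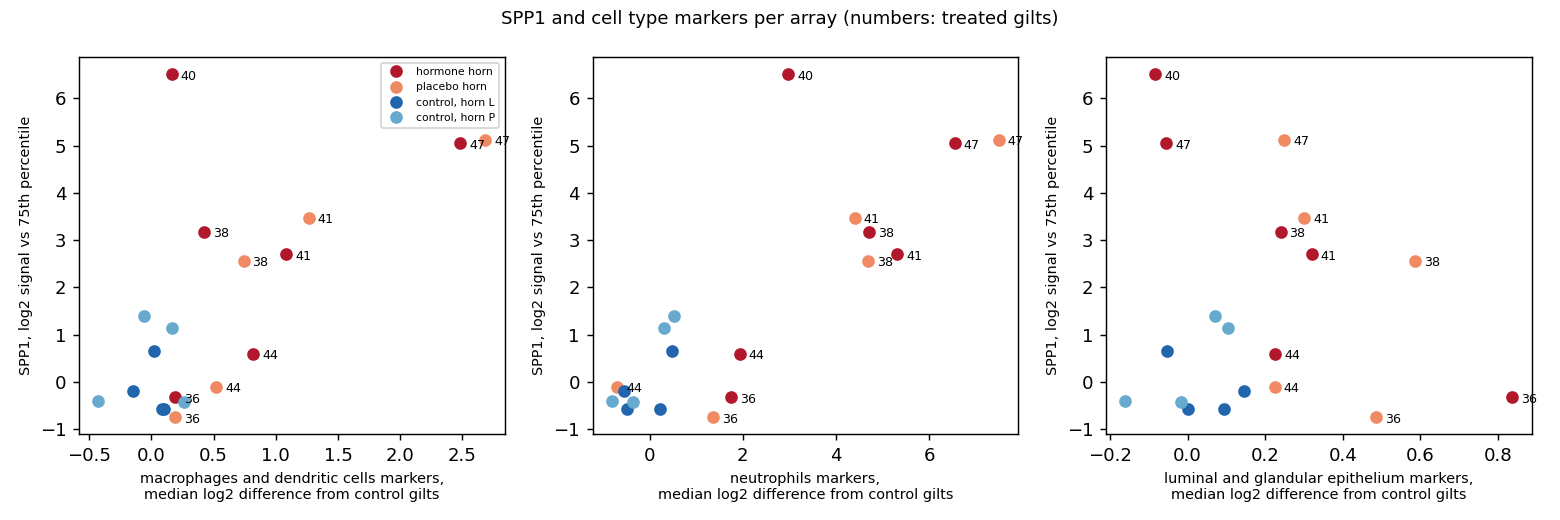
SPP1 (log2 signal relative to the 75th percentile) against the median log2 difference from control gilts of macrophage and dendritic cell, neutrophil, and epithelial markers, per array, with treated gilts numbered. Gilt 40 has the highest SPP1 value, 6.51, at a macrophage marker median of 0.16 and a neutrophil marker median of 2.98.

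Across the 19 probes of the 5 genes, 6 (2 each of SPP1, ITGAV and ITGB5) were higher in hormone horns than in control gilts and 0 were lower, where 11.8% of all probes tested passed (6.86% higher, 4.89% lower). The median difference was 0.40, and 18 of 19 were above 0. The median over all probes was 0.01, and over the brightest probes of the 3010 genes with a symbol it was 0.17, so those probes leaned upward as a set. Having a symbol and being the brightest probe cannot be told apart in these medians. Taking only the brightest probe per gene, 1 of the 5 genes, ITGB5, passed, where 13.0% of the 3010 genes were higher. In placebo horns 2 of 19 probes (1 each of ITGAV and ITGB5) were higher, where 4.49% of all probes passed (2.56% higher). Between the horns of treated gilts 0 of 19 passed (limma), where 0.00256% of all probes did, and ITGB5 probe 1 alone had an unadjusted p under 0.05. Comparisons with control gilts share those gilts, and probes of a gene are not independent.

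**Figure D4:**
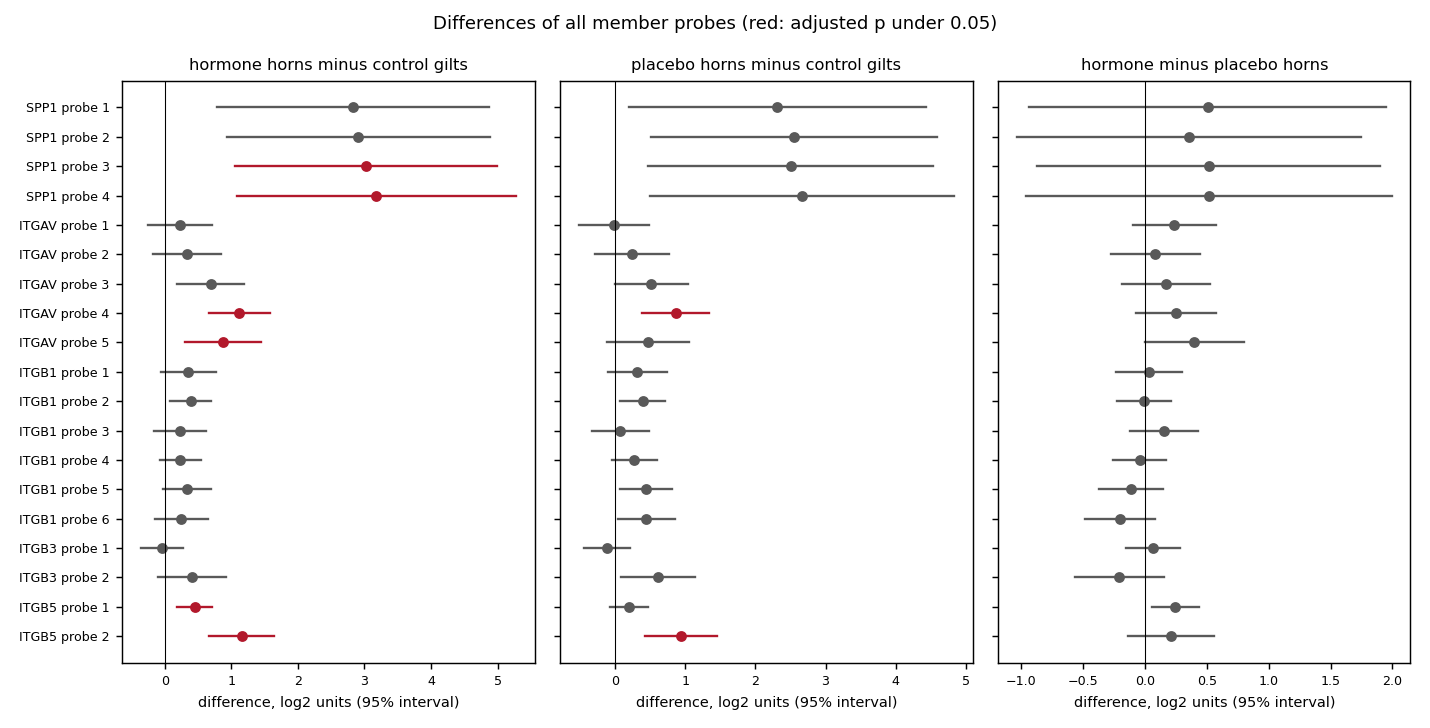
Difference with its 95% interval, in log2 units, of all 19 probes for hormone horns minus control gilts, placebo horns minus control gilts, and hormone minus placebo horns. Red marks an adjusted p under 0.05, which holds for 6, 2 and 0 probes, and SPP1 has the widest intervals.

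ITGB5 rose in hormone horns on both of its probes. It encodes beta 5, the partner of alpha v in a receptor that binds osteopontin and vitronectin. On probe 1 the values in hormone horns were 4.38, 4.73, 4.74, 4.34, 4.58 and 4.65 in gilts 36, 38, 40, 41, 44 and 47. In placebo horns they were 4.18, 4.74, 4.13, 4.08 and 4.39 in gilts 36, 38, 41, 44 and 47. Control gilts 9, 14, 28 and 46 had 3.85, 4.14, 4.28 and 4.33 in the horn marked L and 3.77, 4.17, 4.22 and 4.24 in the horn marked P. All 6 hormone horns lay above all 8 control horns, with a narrow gap between 4.34 in gilt 41 and 4.33 in control gilt 46, a pattern that 3.96% of probes tested showed in this direction. Placebo horns overlapped the controls.

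The ITGB5 difference in hormone horns was 0.45 ± 0.13 log2 units (SE; 1.36-fold) and passed (limma adjusted p = 0.0302; exact permutation p = 0.00952 over 210 splits, unadjusted). It did not pass without gilt 9, 14, 28 or 40, where it was 0.34, 0.46, 0.49 and 0.41 (adjusted p 0.0570 to 0.143). It also missed with quantile normalization (0.30, adjusted p = 0.0925). Probe 2, a dimmer probe, had -1.87, -1.54, -1.73, -2.14, -1.87 and -1.99 in the hormone horns, and -2.77, -3.48, -2.56, -2.22, -3.80, -3.50, -3.07 and -2.66 in the control horns, so that again no hormone horn overlapped a control horn. Its difference was 1.15 ± 0.24 (2.22-fold, adjusted p = 0.00647), and it passed in 10 of 10 fits that left out a gilt. Both probes thus went the same way, by different amounts. In placebo horns probe 2 rose by 0.94 (adjusted p = 0.0383), which held in 3 of 10 such fits, whereas probe 1 had 0.20 (adjusted p = 0.368).

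Between horns, ITGB5 probe 1 had 0.25 ± 0.09 (adjusted p = 0.391), with differences of 0.20, -0.01, 0.21, 0.50 and 0.26 in the 5 treated gilts and of -0.08, 0.03, -0.05 and -0.09 in the 4 control gilts. On probe 1 the horn difference of treated gilts minus that of control gilts had an exact permutation p of 0.0238 (unadjusted) and a limma adjusted p of 0.998. Probe 2 had 0.21 between the horns of treated gilts (limma adjusted p = 0.653). In control gilts its horn P minus horn L was -0.50, a wider gap between vehicle horns than between treated horns. Its difference of 0.71 between these 2 values (limma adjusted p = 0.998) thus drew more on the control gilts.

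ITGAV, the alpha v subunit shared by these receptors, gave different answers on its 5 probes. Probe 1 had 1.42, 2.64, 3.05, 2.29, 1.86 and 1.88 in the hormone horns of gilts 36, 38, 40, 41, 44 and 47, and 1.75 to 2.35 in the control horns, and the groups overlapped (0.22 ± 0.23, limma adjusted p = 0.571). On probe 4 the hormone horns had 0.03, 1.26, 1.84, 1.07, 0.87 and 0.87. The placebo horns had 0.34, 0.90, 0.62, 0.89 and 0.49 on that probe and the control horns -0.35 to 0.20. All 5 placebo horns were above all control horns there, where 3.08% of probes tested were, and gilt 36 was the hormone horn that overlapped. Probe 4 rose by 1.12 ± 0.22 in hormone horns (2.17-fold, adjusted p = 0.00545, passing in 10 of 10 fits that left out a gilt) and by 0.87 in placebo horns (adjusted p = 0.0396, passing in 3 of 10). Probe 5 rose by 0.87 in hormone horns (adjusted p = 0.0428, passing in 4 of 10). Probes 2 and 3 had 0.33 and 0.69 (adjusted p = 0.405 and 0.0678). Correlations between the 5 probes over the 19 arrays were 0.54 to 0.94. Which transcripts each probe reads was not analysed here. On all 5 probes gilt 40 was the highest hormone horn and gilt 36 the lowest.

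ITGB1, which encodes beta 1, the most widely shared integrin beta subunit, did not pass on any of its 6 probes. Their differences in hormone horns were 0.23 to 0.39 log2 units. On probe 1 the hormone horns had 3.93, 4.14, 4.12, 4.02, 4.08 and 4.42 in gilts 36, 38, 40, 41, 44 and 47, the placebo horns 3.91, 4.11, 3.99, 3.72 and 4.71, and the control horns 3.55 to 4.29 over the 6 arrays with a value. The fit used 17 arrays for this probe, as the outlier spots of gilts 14 and 28, horn L, were left out. Its difference was 0.35 ± 0.19 (limma adjusted p = 0.259; 95% interval -0.06 to 0.76), with an exact permutation p of 0.0190 (210 splits, unadjusted). In that permutation test control gilts 14 and 28 entered with horn P alone. Hormone and placebo horns differed by 0.03 (interval -0.23 to 0.30).

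ITGB3, which encodes beta 3, the partner of alpha v in a receptor also found on platelets as the partner of ITGA2B, had no difference that passed on either probe. Probe 1 was the seventh brightest (rank 7) of 43603 probes, at 9.20 to 9.88 in hormone horns, 9.11 to 9.64 in placebo horns and 9.21 to 9.72 in control horns. Its processed signal before scaling was nearly constant, 525706 to 606399 over the 19 arrays (1.15-fold), while the arrays' 75th percentile spanned 594 to 978 (1.65-fold). Its scaled value accordingly ran opposite to log2 of that percentile (r = -0.95 over 19 arrays, a description), so its differences between groups, -0.05 in hormone horns, are not read as differences in ITGB3. Whether this probe reads ITGB3 alone was not analysed here, and it stands for the gene wherever the brightest probes are counted. Probe 2 had 0.40 in hormone horns (adjusted p = 0.304) and 0.61 in placebo horns (adjusted p = 0.152). The 2 probes correlated at 0.11 over the arrays, so they did not follow each other.

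**Figure D5:**
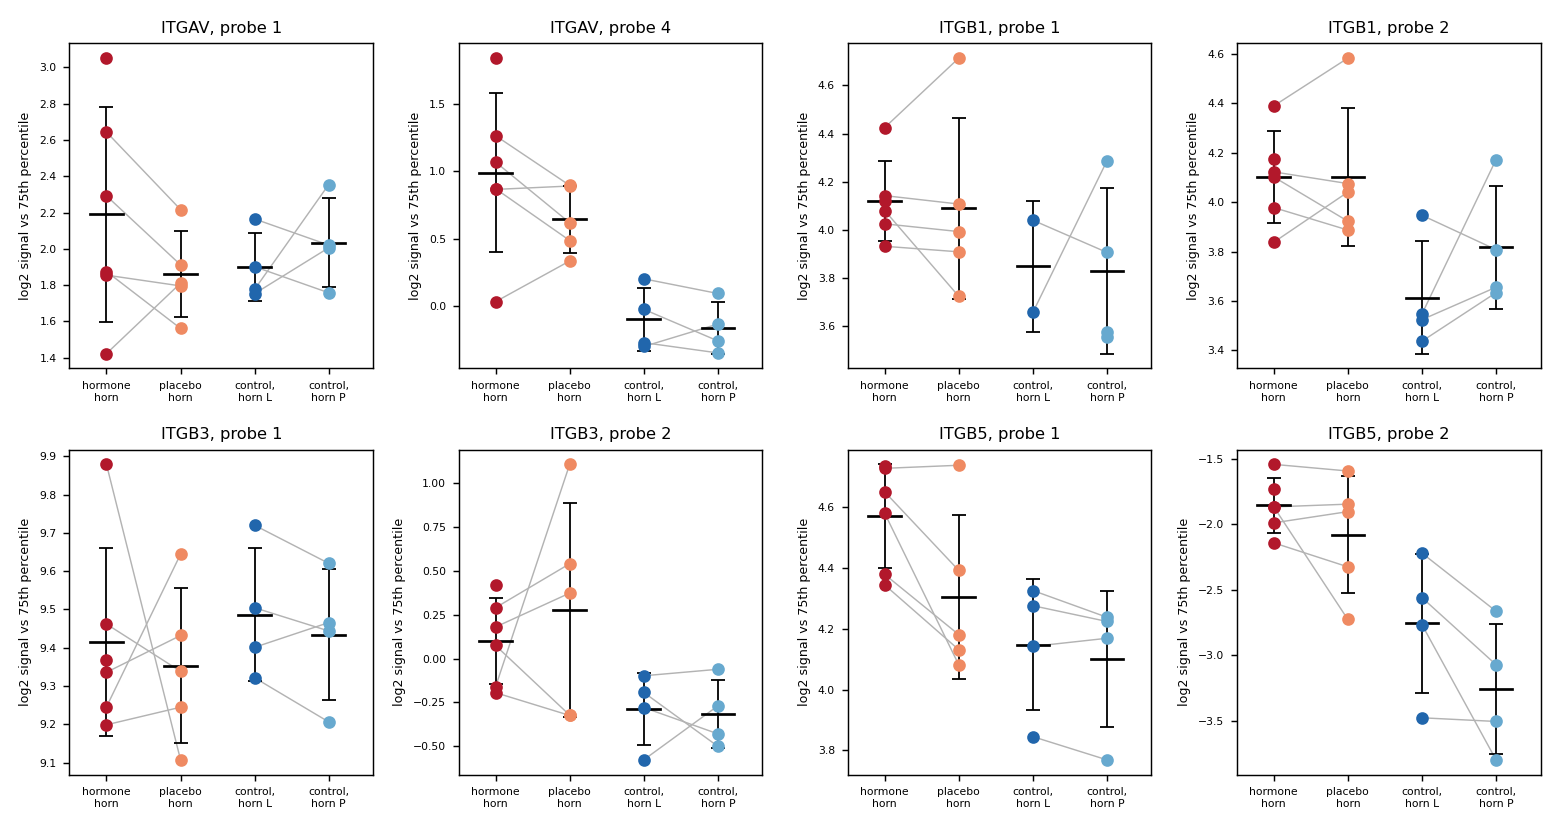
Log2 signal relative to the array's 75th percentile of 2 probes each for ITGAV, ITGB1, ITGB3 and ITGB5, by group, with the mean and SD as bars and grey lines joining the horns of a gilt. Hormone horns are above all control horns on both ITGB5 probes, and placebo horns are on ITGAV probe 4.

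Within the system around osteopontin, other integrin subunits were measured for 7 of 22 listed genes, and 1 rose in hormone horns, which is near the 13.0% of all genes that were higher. This was ITGB6, the epithelial beta subunit that also pairs with alpha v (1.07 ± 0.25, limma adjusted p = 0.0124, and 0.89 in placebo horns with adjusted p = 0.0543). ITGA2 had 0.67 (adjusted p = 0.0501), the leukocyte subunit ITGB2 0.96 (adjusted p = 0.185) and ITGB8, another partner of alpha v, -0.53 (adjusted p = 0.0615). The list's median was 0.60, against 0.17 over the 3010 genes. Among relatives of osteopontin and other ligands or receptors, 2 of 9 measured genes rose and 0 fell in hormone horns (13.0% and 2.43% of all genes). They were MFGE8, a milk fat globule protein that binds alpha v integrins through RGD (0.74, adjusted p = 0.00951), and FBN1, the microfibril protein fibrillin (0.78, adjusted p = 0.0186). VTN (-0.36), THBS1 (0.34) and TNC (0.82) did not pass (adjusted p 0.110 to 0.566).

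Enzymes and partners that process or modify osteopontin were measured for 12 of 15 genes, of which 2 rose and 0 fell in hormone horns, near the 13.0% of all genes that were higher. These were the lysosomal protease CTSD (0.54, limma adjusted p = 0.0282) and the gelatinase MMP2 (0.41, adjusted p = 0.037). In the focal adhesion and integrin signalling list 5 of 16 measured genes rose and 0 fell in hormone horns, where 13.0% of all genes were higher. Its median was 0.45. BSG, a membrane glycoprotein, rose by 0.90 (adjusted p = 0.00515), the kinase FYN by 1.09 (adjusted p = 0.00891), the tetraspanin CD81 by 0.60 (adjusted p = 0.0195) and the kinase AKT1 by 0.88 (adjusted p = 0.0216). In placebo horns 2 of the 16 rose, where 3.72% of all genes did, FYN by 1.11 (adjusted p = 0.0254) and the adaptor CRK by 0.62 (adjusted p = 0.0252). Of 28 measured genes of implantation and estrogen response in pig endometrium, 6 rose and 1 fell in hormone horns, where 13.0% of all genes were higher and 2.43% lower. LPAR3, a lysophosphatidic acid receptor, rose by 2.73, the mucin MUC4 by 2.28 and the aldo-keto reductase AKR1B1 by 2.05, and the growth factor EGF fell (-2.04), with limma adjusted p from 0.00264 to 0.0184.

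Genes whose profile was most like that of SPP1 over the 19 arrays were CEBPG (Pearson r = 0.910), FGL2 (0.901), MDM2 (0.900), CD46 (0.890) and CALCRL (0.888), among 2950 genes compared. AQP11 (-0.920), AKAP3 (-0.878) and DCAF8 (-0.874) ran opposite. These arrays are not independent, as horns share gilts and slides. Of these 8 genes, FGL2 passed in hormone horns (1.14, limma adjusted p = 0.00799). Between SPP1 and the integrin subunits, on their brightest probes, r was 0.61 for ITGB5, 0.61 for ITGB1 (17 arrays) and 0.45 for ITGAV. ITGB3 is left out because its brightest probe followed the array scaling.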

How the data were processed

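RNA from the endometrium of 10 gilts went onto 19 Agilent arrays, each with a single Cy3-labelled sample. The deposited files give spot intensity on a linear scale, background-subtracted and spatially detrended within the array by Agilent Feature Extraction, version 10.7.3.1 per the file headers (9.1 in the submitters' processing notes). The authors' deposited value table holds log2 values for 37744 of the probes (per-array medians 7.72 to 7.83, r with the log2 scanner values 0.993 to 0.998), with normalization not given in the sources used here. It served as an alternative.

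Control spots and outlier-flagged values (891 among tested probes) were left out. Probe values were log2 processed signal minus log2 of the array's 75th percentile. Of 43603 probes, 39072 were tested (well above background on at least 4 arrays, at least 2 values per group), filters set to follow an earlier account of these data. Symbols came through RefSeq accessions (6768 probes, 3123 symbols), and a gene's brightest probe stood for it. The model (limma 3.58.1, statmod 1.5.0, R 4.3.3, eBayes with trend) had a mean for each of 4 groups, and gilt was its random block. Horns with the same gilt number came from one animal, and their deviations from the group means correlated at 0.336 to 0.795 in treated and 0.403 to 0.627 in control gilts. They also shared a slide. Permutation tests over gilts used scipy 1.17.1. The code was tested on simulated data. The number of arrays limits the precision.

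The members and gene lists were chosen with earlier results of these data known. Named list genes are up to 4 with the smallest p among those that passed in a list, all members, and the 5 and 3 genes most and least correlated with SPP1. A few others of a list were named after their values were seen. The alternatives covered normalization, background, filters, blocks, batches, left-out gilts and probe choice. Normexp on median signals (the files hold no mean signal) and slide as a random block were added after the data were seen.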

Additional observations from a re-analysis of the deposited data

Results flagged for a closer look

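Within the groups of 4 to 6 arrays, 3 values of the 19 probes stood far from the rest of their group (Dixon's test at the 95% level, 75 groups tested, of which chance flags about 1 in 20). On ITGB1 probe 2 the placebo horn of gilt 47 was highest at 4.58, next to 4.08. On ITGB1 probe 3 the control horn P of gilt 9 was highest at 4.46, next to 3.70. On ITGB5 probe 1 the control horn P of gilt 9 was lowest at 3.77, next to 4.17.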

How the results depend on the processing

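Differences are in log2 units, and the cause of each change below was not tested unless its construction shows it. "Horn contrast" stands for the horn difference of treated gilts minus that of control gilts.

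Against control gilts, SPP1 in hormone horns passed with scan day as a term (3.06) and on probes 3 and 4 (3.02 and 3.18), and was 2.11 to 3.48 when a gilt was left out. ITGAV in hormone horns passed on probes 4 and 5 (1.12 and 0.87), and ITGB5 in placebo horns on probe 2 (0.94). ITGB5 in hormone horns missed the threshold with quantile normalization (0.30), with control horns averaged per gilt (0.45), without gilt 47 and gilt 36's hormone horn (0.46) and within the 3 scan days (0.67, 0.34 and 0.41, on fewer arrays), and was 0.34 to 0.50 when a gilt was left out. Of the 19 probes, the 6 that passed in hormone horns became 3 with quantile normalization, with only the groups compared and with slide as a random block, 2 with slide as a term and with control horns averaged, 0 within scan day 1 and within scan day 3, and 2 to 9 when a gilt was left out. The 2 that passed in placebo horns became 4 with scan day as a term, 1 with slide as a term and without gilt 47 and gilt 36's hormone horn, 0 with control horns averaged, only the groups compared, the horn mark as a term and within scan days 1 and 3, and 0 to 4 when a gilt was left out.

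Signs turned as follows, mostly for differences near 0. With slide as a term, hormone horns minus control gilts was -0.15 for SPP1, -0.37 for ITGAV and -0.036 for ITGB1, and placebo horns minus control gilts was -0.33 for SPP1 and -0.067 for ITGB1. Within scan day 1, hormone horns minus control gilts was -0.43 for ITGAV and 0.00030 for ITGB3, placebo horns minus control gilts -0.13 for SPP1 and -0.16 for ITGB1, hormone minus placebo horns -0.16 for ITGAV, horn P minus L -0.20 for SPP1, and the horn contrast 0.77 for SPP1 and -0.74 for ITGAV. Within scan day 2, placebo horns minus control gilts was 0.18 for ITGAV, hormone minus placebo horns -0.17 for SPP1 and -0.019 for ITGB3, and for ITGB3 horn P minus L was 0.0019 and the horn contrast -0.021. Within scan day 3, ITGB3 had 0.027 in hormone horns, 0.27 in placebo horns, -0.25 between horns and a horn contrast of -0.13, ITGB1 had -0.13 between horns, -0.13 for horn P minus L and a horn contrast of 0.0068, and ITGAV had 0.059 in placebo horns and -0.14 for horn P minus L.

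The horn contrast of SPP1 was 0.10 with normexp, 0.13 on probe 3, 0.16 without the hormone horn of gilt 36, 0.55 without that horn and gilt 47, and -0.42 to 0.38 when a gilt was left out. ITGAV in placebo horns was 0.0077 with the array median, 0.0030 in the authors' deposited log2 table, 0.052 with scan day as a term, 0.047 without gilt 47 and gilt 36's hormone horn, 0.42 as the mean of its probes, 0.25, 0.52, 0.87 and 0.47 on probes 2 to 5, and -0.11 to 0.058 when a gilt was left out. Its horn contrast was -0.037 on probe 2, and its horn P minus L was -0.063 on probe 4 and -0.011 to 0.23 when a gilt was left out. ITGB1 between horns was -0.012 with the array median and in the authors' deposited table, -0.052 with the horn mark, -0.030 as the mean of probes, -0.039 with quantile normalization, -0.0088, -0.042, -0.11 and -0.20 on probes 2, 4, 5 and 6, and -0.051 to 0.12 when a gilt was left out. Its horn P minus L was -0.23 to 0.40 and its horn contrast -0.36 to 0.27 when a gilt was left out, and the horn contrast was 0.031 without gilt 47 and gilt 36's hormone horn. The brightest ITGB3 probe had a nearly constant raw signal, so its values here reflect the scaling of the arrays. ITGB3 had 0.059 in hormone horns, 0.054 in placebo horns, 0.0083 for horn P minus L and a horn contrast of -0.0026 with quantile normalization. As the mean of probes these were 0.18 in hormone horns and 0.25 in placebo horns, with -0.070 between horns and a horn contrast of -0.030, and on probe 2 they were 0.40, 0.61, -0.21 and -0.18. Without the hormone horn of gilt 36 ITGB3 had -0.072 between horns and a horn contrast of -0.019, and when a gilt was left out -0.14 to 0.024 in hormone horns, -0.10 to 0.18 between horns and -0.047 to 0.23 as the horn contrast.

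Without the replicate block (no pairing by gilt) the horn contrast was 0.29 for SPP1 and 0.050 for ITGB1, and horn P minus L was -0.018 for ITGB1. Without the block 6965 probes passed in hormone horns, against 4591 with it, and 3567 in placebo horns, against 1754. With control horns averaged per gilt, which counts each control gilt once, these were 2202 and 97. With slide as a random block they were 8290 and 4994. In placebo horns 14 passed with only the groups compared, 20 with the horn mark, 3168 with slide as a term and 399 without gilt 47 and gilt 36's hormone horn. Leaving out a gilt gave 1459 to 5236 in hormone horns and 0 to 3209 in placebo horns. With the gilt as a fixed replicate block 16 probes passed between horns, against 1, and 0 of the 5 genes on their brightest probes did.

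The 4 control gilts, at most 2 of them on 1 scan day, and 1 unpaired hormone horn limit every comparison. Signal over background was not limiting for the 19 probes.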
